A study of Mus musculus with 18 samples.

Results

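The tumours described here grew from mouse MC38 cells with lowered Mbtps1 or from control MC38 cells, with 5 RNA-seq libraries of each kind. They were chosen by their titles alone and are 10 of the 18 samples of the series. The others are 6 libraries of cultured MC38 cells, used below only to tell which genes the cells express outside an animal, and 2 samples of a pooled CRISPR screen that were not analysed here. MC38 is a colon adenocarcinoma line from a C57BL/6 mouse. The series' text gives wild-type C57BL/6 hosts for both groups, so the cells lie in mice of their own strain, and each tumour library mixes RNA of the implanted cells with RNA of host cells whose own Mbtps1 was not altered. The genotype label was Mbtps1 KD in one group (knockdown tumours) and Mbtps1 WT in the other (control tumours); the series' text speaks of a knockdown in the tumours and of a knockout in the cultured cells that carry the same label. No treatment of the mice is named in the labels. How Mbtps1 was lowered, whether the cells were a clone or a pool, the implantation site, the day of collection and the age and sex of the hosts are not given in the sources used here. The labels do not say that the 5 tumours of a group came from separate mice, so p-values measure only the spread between these samples. The series asks what MBTPS1 does in the response of tumours to immune attack.

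Mbtps1 encodes site-1 protease, a serine protease of the Golgi membrane. It makes the first cut in the membrane-bound precursors of the sterol regulators SREBF1 and SREBF2 and of the stress sensor ATF6, and it matures the enzyme that tags lysosomal hydrolases. In a tumour, T cells and natural killer cells kill with perforin and granzymes and release interferon gamma. Interferon gamma acts through JAK kinases and the factor IRF1 on tumour and host cells alike, and raises guanylate-binding proteins, antigen presentation and the chemokines CXCL9 and CXCL10. Fibroblasts and the tumour cells lay down collagens, fibronectin and elastic fibres, many of them under the control of TGF-beta.

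Mbtps1 mRNA stood at 114, 110.3, 129.8, 129 and 122 CPM in control tumours 1 to 5 and 50.1, 41.4, 57.1, 56.3 and 54.1 CPM in knockdown tumours 1 to 5, where CPM is the count of a gene per 1000000 counts of its library. The groups did not overlap, and the log2 fold change of knockdown against control was -1.21 ± 0.09 (SE; edgeR quasi-likelihood test, Benjamini-Hochberg adjusted p = 1.2e-05). Of 13997 genes tested, 2816 rose (20.1%) and 2561 fell (18.3%) at an adjusted p below 0.05, and 38.4% passed in either direction. In 1584 genes (11.3%) every knockdown library lay above every control library, and in a further 1584 (11.3%) every one lay below. These shares are the background against which each list of genes below is to be read.

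Library totals ran from 19630410 to 28316572 counts in the control group and from 22257519 to 32655739 in the knockdown group. A broad shift with base composition ran through the table. With the tested genes that have a GC value cut into 5 equal sets by transcript GC content, in the lowest set 45.8% rose and 3.89% fell, while in the highest set 6.59% rose and 33.4% fell. The median level of the lowest set minus that of the highest, on the log2 scale against the control mean, was between -0.14 and 0.10 in the control libraries and between 0.39 and 0.64 in the knockdown libraries, with no overlap. A fit corrected for GC content and transcript length called 4111 of 13499 genes, 2028 higher and 2083 lower, which is the background for its counts below. Of these calls 3071 were among the 5377 called without the correction (57.1%), and 3070 of them in the same direction. Values of the corrected fit are given below where they end the call of a gene or change, by over 1.5 times, a count that is at least 4 in either fit. They are also given in some other places. Smaller counts also moved between fits. The part of base composition in the other results was not tested. Knockdown tumours 3 and 5 also stood apart from the other knockdown tumours. Messenger RNA encoded by the mitochondrial genome took 7.07% and 5.77% of their counts, against 2.88 to 3.17% in the other knockdown tumours and 1.503 to 2.778% in the control tumours (exact permutation p = 0.00794 for the 2 groups of 5, the smallest this design allows). Without these 2 libraries 3754 genes were called, and 3418 of them were among the 5377, each in the same direction.

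**Figure D1:**
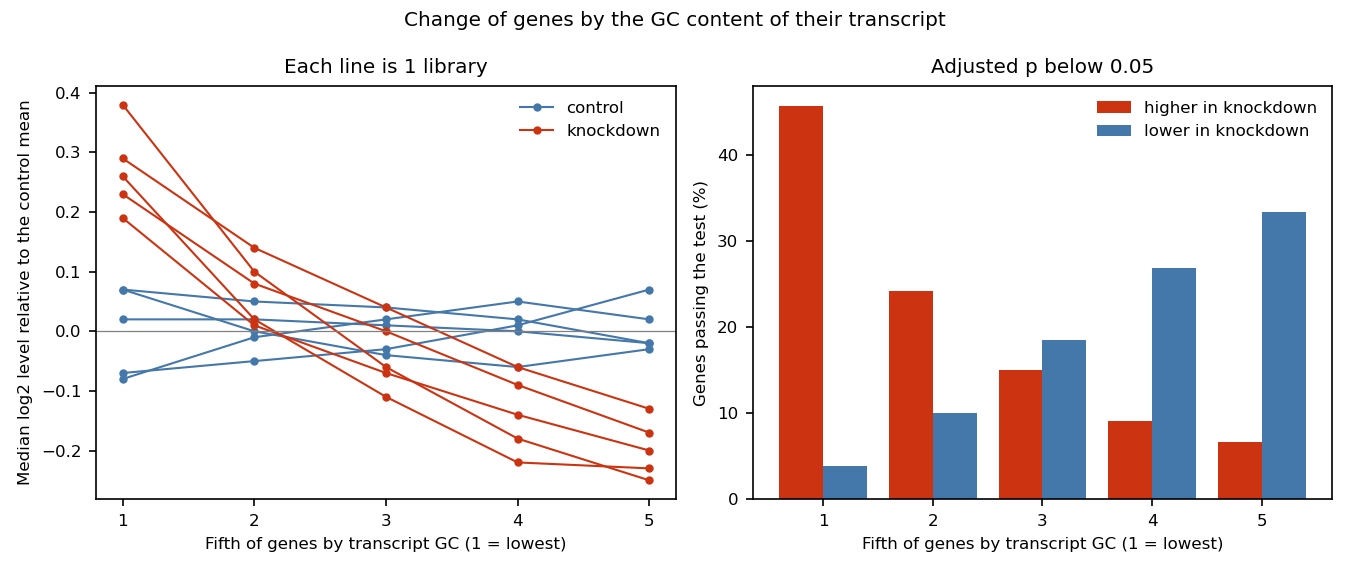
Left, the median log2 level of 5 equal sets of the tested genes, ordered by transcript GC content, in each library, relative to the control mean; each line is 1 library. Right, the share of each set that passed the test in each direction (bars from 0%); the lowest set holds 45.8% higher genes and the highest 33.4% lower genes.

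The interferon-induced GTPases changed together, so the DNA before their transcription start is shown first. Guanylate-binding proteins and immunity-related GTPases attack vacuoles and pathogens inside cells, and their promoters carry 2 well-known kinds of interferon element. The search used the letters TTCNNNGAA, the gamma-activated sequence (GAS), and GAAANNGAAA, bound by interferon regulatory factors (ISRE), on both strands; the 2 patterns can share their GAA. In the 250 bases before the RefSeq start (build GRCm38.p6), 8.13% of 27025 promoters held the first and 3.46% the second. Of the 12 GTPase-list members found in the promoter table, 6 held the first and 10 the second, and 9 of those 10 genes rose. The 2 members without the second pattern rose as well. In the type I interferon list 10 of 20 promoters held the second pattern, and of these 10 genes 1 rose, 2 fell and the other 7 were not called. Of the type I genes without it 2 rose, 2 fell and 6 were not called. The promoter of Oasl1, a type I gene that fell, held neither pattern and is not shown. The 3 GTPase promoters below belong to members with rises of different size, and the last to Ifit3b, a type I interferon gene that fell; capitals mark matches to either pattern, and each run is read 5′ to 3′ on the plus strand, the strand of its gene.
Gbp2b, chr3:142594597-142594846: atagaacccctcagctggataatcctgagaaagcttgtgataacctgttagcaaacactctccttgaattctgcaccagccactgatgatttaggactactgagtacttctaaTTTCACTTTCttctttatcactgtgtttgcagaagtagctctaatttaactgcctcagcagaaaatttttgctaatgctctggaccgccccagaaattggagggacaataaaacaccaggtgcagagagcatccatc
Gbp7, chr3:142530086-142530335: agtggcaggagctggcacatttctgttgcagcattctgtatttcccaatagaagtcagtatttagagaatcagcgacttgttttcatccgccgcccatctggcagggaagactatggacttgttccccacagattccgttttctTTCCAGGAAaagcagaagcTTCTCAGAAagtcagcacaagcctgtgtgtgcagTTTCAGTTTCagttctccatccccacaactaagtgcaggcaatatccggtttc
Igtp, chr11:58199306-58199555: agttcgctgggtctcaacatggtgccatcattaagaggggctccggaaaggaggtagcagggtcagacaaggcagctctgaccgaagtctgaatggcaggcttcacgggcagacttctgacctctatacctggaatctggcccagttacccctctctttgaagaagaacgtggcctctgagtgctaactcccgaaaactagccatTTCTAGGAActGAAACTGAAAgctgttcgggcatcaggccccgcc
Ifit3b, chr19:34607707-34607956: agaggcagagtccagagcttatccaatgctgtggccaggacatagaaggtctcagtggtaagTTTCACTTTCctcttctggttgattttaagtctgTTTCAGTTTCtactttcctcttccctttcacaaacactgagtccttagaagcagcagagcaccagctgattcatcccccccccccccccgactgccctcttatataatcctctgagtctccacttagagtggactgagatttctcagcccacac
A match describes the letters only and does not show that a factor binds there.

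Of the 21 tested GTPase genes, 19 rose and none fell, with a median log2 fold change of 0.79, against 0.02 over all genes tested. Gbp4 was at 259, 167, 159, 185 and 178 CPM in control tumours 1 to 5 and 438, 401, 503, 411 and 506 CPM in knockdown tumours 1 to 5. Its groups lay apart, with control tumour 1 the highest control, and it rose by 1.27 ± 0.13 on the log2 scale (edgeR adjusted p = 5.7e-05). Gbp2b, which is listed at 0 in cultured cells, was at 5.36, 0.7798, 1.62, 2.04 and 1.801 CPM in control tumours 1 to 5 and 16.6, 24.2, 7.35, 14.8 and 15.99 CPM in knockdown tumours 1 to 5. It rose by 2.79 ± 0.42 (edgeR adjusted p = 0.00057), and knockdown tumour 3 was the lowest of its group. Gbp7 went from 88.8 ± 9.42 to 183 ± 16.3 CPM (SD, n = 5 each), Igtp from 301 ± 56.6 to 552 ± 59.7 CPM, Gbp8 from 31.6 ± 5.83 to 84.3 ± 19.7 CPM and Iigp1, a GTPase of the p47 family, from 154 ± 16.2 to 375 ± 58.6 CPM, and each of them rose. In the fit corrected for GC and length 14 of the 21 rose; Tgtp1 and Tgtp2, near-identical copies among which counts may be split, were among the calls that ended.

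Ifng itself, the ligand, was at 1.92, 1.24, 1.698, 1.43 and 1.31 CPM in control tumours 1 to 5 and 4.95, 5.93, 5.298, 3.55 and 6.17 CPM in knockdown tumours 1 to 5. Every knockdown tumour was above every control tumour, and the log2 change was 1.79 ± 0.199 (edgeR adjusted p = 8e-05). Its signalling list of 18 genes held 10 that rose and none that fell, with a median of 0.38. Ido1, which breaks down tryptophan, had the steepest rise among the genes named here from this list, from 1.01, 0.229, 0.474, 0.509 and 0.671 CPM in the control tumours to 3.62, 3.82, 6.09, 3.91 and 4.58 CPM, without overlap (2.94 ± 0.297, edgeR adjusted p = 5e-05). Nlrc5, the activator of MHC class I genes, rose from 125 ± 14.3 to 216 ± 34.8 CPM. Genes that carry the signal in differed little: the receptor chain Ifngr1 was at 151 ± 8.09 CPM in control and 170.2 ± 15.4 CPM in knockdown tumours and the kinase Jak1 at 144 ± 9.53 CPM in control and 125 ± 13.7 CPM in knockdown tumours, and neither passed the test. Irf1 rose by 0.25 ± 0.09; its call ended with library totals, without knockdown tumours 3 and 5, and when any one of control tumours 2, 3 and 5 and knockdown tumours 4 and 5 was left out.

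Without the correction for GC and length, genes of the type I interferon response were called at shares near those of all genes. Of 27 tested genes 4 rose and 6 fell, beside 20.1% and 18.3% of all genes tested, with a median of 0.00. In the fit corrected for GC and length 3 of 27 rose and 10 fell, with a median of -0.12. Over all 13499 genes of that fit 2028 rose and 2083 fell, so the share of type I genes that fell was above the background there. Without knockdown tumours 3 and 5, 2 of 27 rose and 6 fell, beside 1903 higher and 1851 lower of 14163 genes. Oasl1, an antiviral protein of the OAS family, was at 69.7, 54.6, 82.8, 63.6 and 57.7 CPM in control tumours 1 to 5 and 36.4, 32.3, 20.7, 30.7 and 18.7 CPM in knockdown tumours 1 to 5. It fell by 1.23 ± 0.17 with no overlap (edgeR adjusted p = 0.00031), and knockdown tumours 3 and 5 were the lowest. Irf7, the factor that amplifies type I interferon, was at 395, 282, 383, 356 and 256 CPM in control tumours 1 to 5 and 248, 257, 201, 229.7 and 196 CPM in knockdown tumours 1 to 5. The groups touched, since knockdown tumour 2 was level with control tumour 5, and the change was -0.55 ± 0.13 (edgeR adjusted p = 0.00539). Usp18, which damps interferon receptor signalling, went from 66.3 ± 6.005 to 44.5 ± 6.29 CPM and Ifit3b from 51.7 ± 4.21 to 33.6 ± 8.18 CPM, and both fell. Ifi205 and Xaf1 were among the genes that rose, by 0.54 ± 0.09 and 0.42 ± 0.095; corrected for GC and length, Ifi205 no longer differed, while Xaf1 kept its call.

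**Figure D2:**
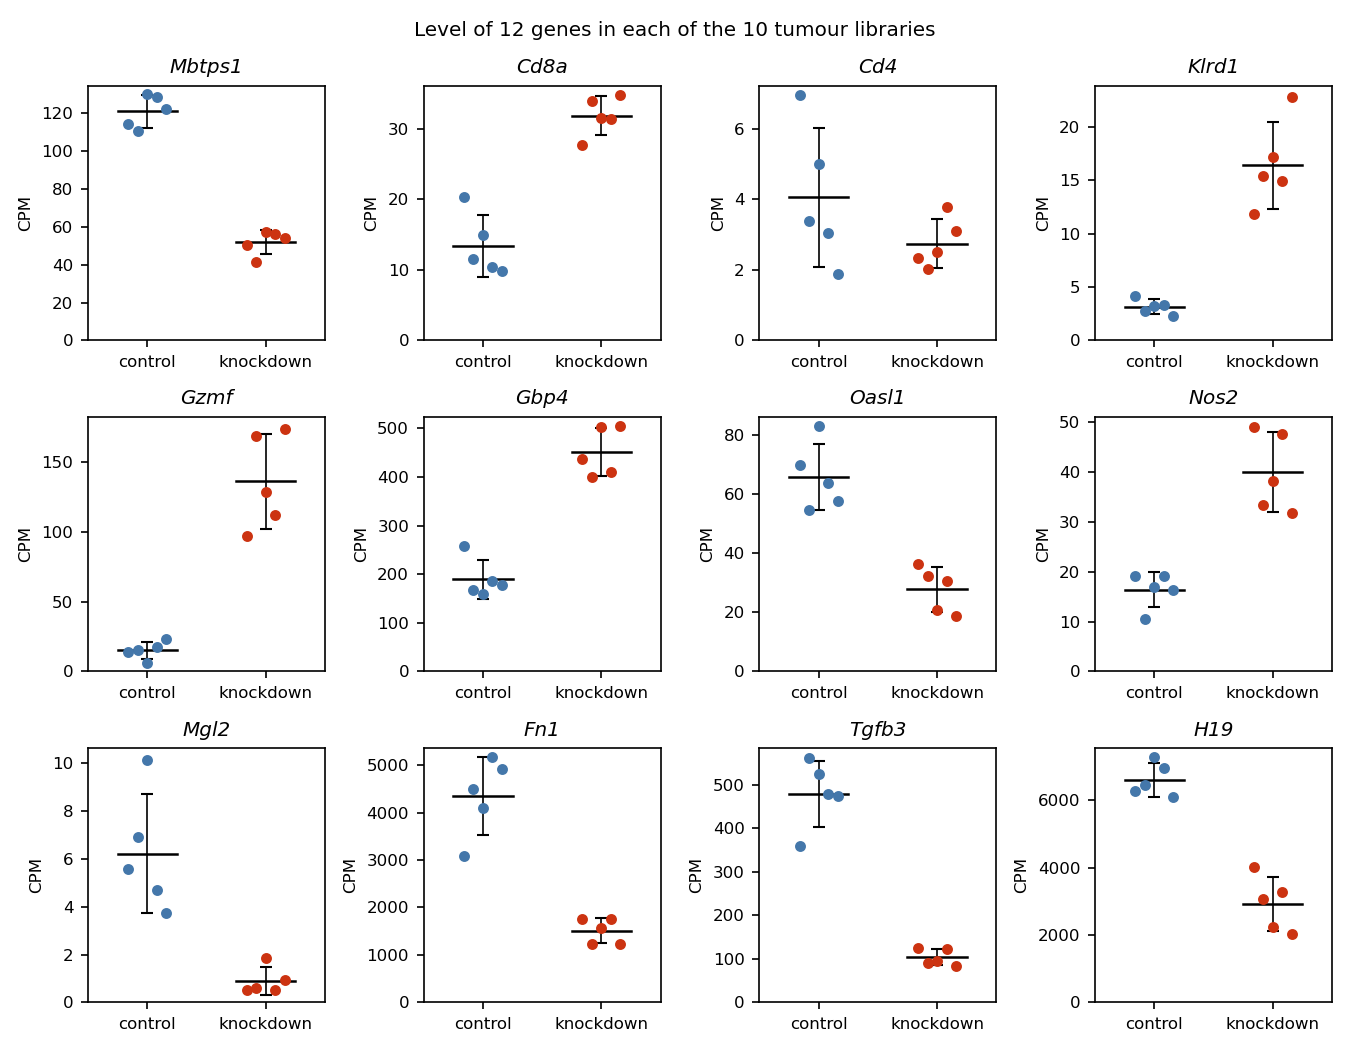
CPM of 12 genes in each control (blue) and knockdown (red) tumour library; horizontal lines are means and error bars SDs, n = 5. Only Cd4 overlaps between the groups, and knockdown libraries lie above for Cd8a, Klrd1, Gzmf, Gbp4 and Nos2 and below for Mbtps1, Oasl1, Mgl2, Fn1, Tgfb3 and H19.

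Among leukocyte genes the pan-leukocyte phosphatase Ptprc (CD45) was at 59.5, 39.5, 59.6, 46.8 and 41.7 CPM in control tumours 1 to 5 and 91.98, 94.7, 76.6, 124 and 123 CPM in knockdown tumours 1 to 5. It was higher in each knockdown tumour than in any control (1.06 ± 0.14, edgeR adjusted p = 0.00025). In bulk RNA a change of this kind cannot be told apart between more cells of a type and more RNA per cell, here and in every result below. Of 15 pan-leukocyte genes 7 rose and none fell, with a median of 0.29, and 4 rose when control tumour 4, control tumour 5, knockdown tumour 2 or knockdown tumour 4 was left out. Genes listed at 0 in the cultured cells, where a listed 0 may hide a low count, took 2.44 ± 0.256% of counts in the knockdown group against 1.89 ± 0.353% in control (SD, n = 5 each). The ranges overlapped, from 2.01 to 2.67% and from 1.54 to 2.44% (exact permutation p = 0.0317), and the exact permutation p was from 0.0556 to 0.0635 when control tumour 2, 3, 4 or 5 or knockdown tumour 2, 4 or 5 was left out. With genes under 1 CPM in culture in their place the exact permutation p was 0.0556.

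The T cell changes were uneven. Cd8a, the co-receptor of cytotoxic T cells, was at 20.4, 11.6, 15.01, 10.4 and 9.82 CPM in control tumours 1 to 5 and 27.7, 33.9, 31.6, 31.5 and 34.8 CPM in knockdown tumours 1 to 5, and rose without overlap (1.27 ± 0.17, edgeR adjusted p = 0.00027). Cd4 was at 6.96, 3.39, 5.02, 3.06 and 1.87 CPM in control tumours 1 to 5 and 2.33, 2.02, 2.51, 3.77 and 3.11 CPM in knockdown tumours 1 to 5. These values overlapped and did not pass the test (-0.55 ± 0.29, edgeR adjusted p = 0.157), though they did without control tumour 5, the lowest control. Foxp3, the factor of regulatory T cells, was at 4.81, 1.42, 4.34, 2.24 and 2.37 CPM in control tumours 1 to 5 and 2.24, 2.83, 2.205, 2.09 and 2.74 CPM in knockdown tumours 1 to 5, again overlapping (-0.31 ± 0.28, edgeR adjusted p = 0.412). Of 9 tested regulatory T cell genes none rose and 1 fell, Lrrc32, a call that ended in the fit corrected for GC and length. Of 15 genes of the T cell receptor complex 7 rose and none fell; without control tumour 1, the control with the highest Cd3e, 13 rose. Cd3e itself went from 5.47 ± 2.37 to 9.98 ± 1.58 CPM and overlapped, since control tumour 1 was level with the lower knockdown tumours.

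Ratios within a library do not depend on how libraries are scaled, but they were not corrected for base composition. By exact permutation tests with adjustment over the family, 10 of 25 passed, and 4 without knockdown tumour 2 or without knockdown tumour 5. The log2 ratio of Cd8a to Foxp3 was 2.08, 3.00, 1.78, 2.20 and 2.04 in control tumours 1 to 5 and 3.61, 3.57, 3.83, 3.90 and 3.66 in knockdown tumours 1 to 5. It was higher by 1.49 with no overlap (exact permutation p = 0.00794, adjusted 0.0283). Cd4 against Ptprc was lower by 1.5 on the log2 scale, again with no overlap (exact permutation p = 0.00794, adjusted 0.0283). Cd8a against Ptprc differed by 0.25 (adjusted exact permutation p = 0.248) and Cd3e against Ptprc by -0.09 (adjusted exact permutation p = 0.699), so neither was shown to change. Ifng against Cd3e was higher by 0.80, with groups that overlapped (adjusted exact permutation p = 0.0397).

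Of 11 naive and memory T cell genes 4 rose and 2 fell, and 2 rose and 1 fell without knockdown tumours 3 and 5. Il7r, the interleukin 7 receptor, rose from 4.33 ± 0.898 to 8.32 ± 0.885 CPM. Lef1, a factor of naive T cells that other cells also use, fell from 5.36 ± 0.925 to 2.68 ± 0.307 CPM. Tcf7 was at 25.9 ± 1.25 CPM in control and 25.1 ± 4.43 CPM in knockdown tumours and did not pass; its log2 ratio to Cd3e was lower by 1.01 (adjusted exact permutation p = 0.0611). Of 11 checkpoint and exhaustion genes 6 rose and none fell. Havcr2 (TIM-3) rose by 0.73 ± 0.12, Tnfrsf9 (4-1BB) by 0.61 ± 0.12, Ctla4 by 1.02 ± 0.24 and Cd160 by 0.94 ± 0.24. Pdcd1, the receptor PD-1, was at 11.01 ± 6.34 CPM in control and 16.7 ± 4.04 CPM in knockdown tumours and did not pass (edgeR adjusted p = 0.128), though it did without control tumour 1. Of 9 tested T helper lineage genes 6 rose and none fell; the signal transducer Stat4 rose by 1.15 ± 0.21, the interleukin 18 receptor chains Il18r1 and Il18rap by 1.49 ± 0.28 and 1.28 ± 0.21, and the tissue homing receptor Cxcr6 by 1.31 ± 0.22, while Cxcr3 did not pass, though it did without control tumour 1, nor did Il12rb2, though it did without knockdown tumours 3 and 5. B cell genes gave no call among 5 tested; Cd79a was too low to be tested, and Ighm was at 20.8 ± 8.73 CPM in control and 30.4 ± 8.69 CPM in knockdown tumours.

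**Figure D3:**
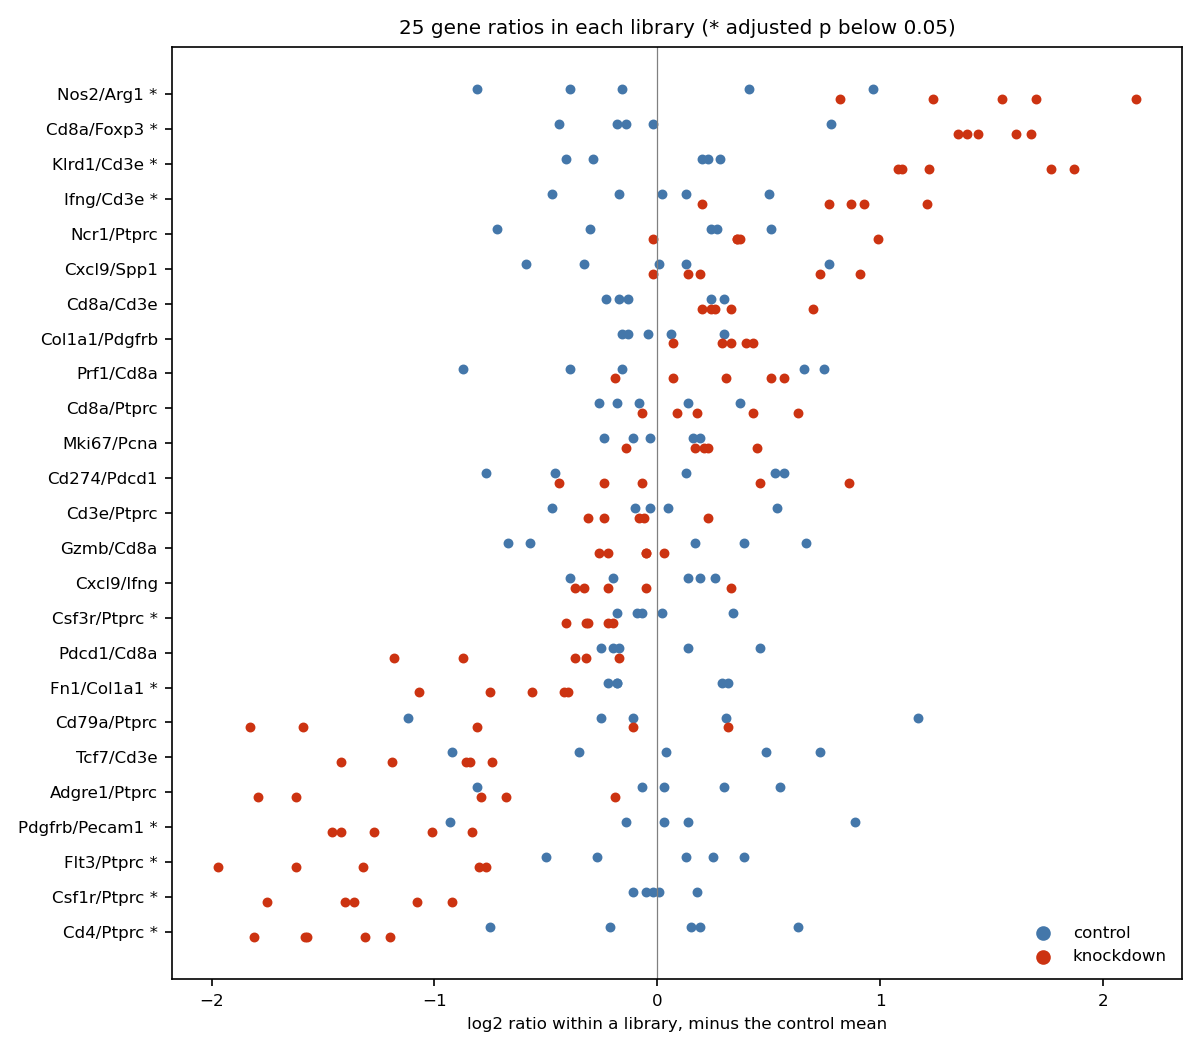
Log2 ratio of each gene pair within a library minus the mean of the control libraries, for 5 control (blue) and 5 knockdown (red) libraries; a star marks an adjusted exact permutation p below 0.05. The ratios of Cd8a to Foxp3 and of Klrd1 to Cd3e lie to the right of every control, and those of Cd4, Csf1r and Flt3 to Ptprc to the left.

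Genes of killer cells rose steeply. Of 15 tested granule genes 13 rose and none fell, with a median of 1.42. Gzmf, a granzyme of the cluster that strongly activated killer cells express, was at 13.97, 15.1, 5.85, 17.7 and 23.02 CPM in control tumours 1 to 5 and 97.5, 169, 129, 112 and 174 CPM in knockdown tumours 1 to 5. The lowest knockdown tumour was over 4 times the highest control in level, and the change was 3.19 ± 0.31 (edgeR adjusted p = 5.7e-05). Its neighbours Gzmd, Gzme and Gzmg, similar in sequence, so that reads could be shared among them, rose by 2.84 ± 0.37, 2.73 ± 0.35 and 3.22 ± 0.37. Gzmb, the main granzyme of killer cells, was at 21.2, 21.5, 16.6, 27.4 and 21.2 CPM in control tumours 1 to 5 and 44.1, 48.03, 53.2, 50.1 and 47.96 CPM in knockdown tumours 1 to 5, a rise of 1.19 ± 0.12 (edgeR adjusted p = 5.1e-05). Prf1, the pore-forming perforin, went from 9.42 ± 2.72 to 26.9 ± 4.67 CPM and Fasl, the death ligand, from 1.26 ± 0.5198 to 3.63 ± 0.544 CPM, and both rose. Gzmb against Cd8a differed by -0.11 and Prf1 against Cd8a by 0.25 on the log2 scale (adjusted exact permutation p = 0.728 and 0.559).

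Receptors of natural killer cells, many of which activated CD8 T cells also carry, rose with the granzymes. Of 13 tested lectin-like receptors 12 rose, with a median of 1.83, and 10 rose in the fit corrected for GC and length, with a median of 1.23. Klrd1 (CD94) was at 4.17, 2.75, 3.24, 3.36 and 2.33 CPM in control tumours 1 to 5 and 11.8, 15.4, 17.2, 14.9 and 22.8 CPM in knockdown tumours 1 to 5. Klrd1 rose by 2.4 on the log2 scale and by 1.53 in the fit corrected for GC and length, and Cd3e by 0.89 and 0.81. The log2 ratio of Klrd1 to Cd3e, not corrected for base composition, was below 0 in every control tumour and above 0 in every knockdown tumour. The control and knockdown means were -0.71 ± 0.324 and 0.70 ± 0.382 (SD; exact permutation p = 0.00794, adjusted 0.0283). The part of base composition in this shift of Klrd1 was not tested. The partner Klrc1 (NKG2A) rose from 2.21 ± 0.989 to 8.78 ± 1.79 CPM, and the Ly49 receptors Klra2 and Klra7 by 1.49 ± 0.17 and 2.17 ± 0.24. Ly49 genes are close copies of each other, so the split of counts among them is uncertain. Of 11 activating receptors and adaptors 9 rose and none fell, with Klrk1 (NKG2D) from 9.66 ± 3.56 to 27.8 ± 4.78 CPM. Ncr1 (NKp46), a defining receptor of natural killer cells, rose from 1.19 ± 0.488 to 3.21 ± 0.845 CPM and stayed low; against Ptprc it differed by 0.41 (adjusted exact permutation p = 0.261). Il15 and its presenting receptor Il15ra, which feed these cells, rose by 0.82 ± 0.12 and 0.801 ± 0.105.

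Of 20 MHC class I genes 5 rose, a share near the 20.1% of all genes tested, and none fell, with a median of 0.14. Psme2, a subunit of the immunoproteasome activator, went from 286 ± 35.97 to 412 ± 41.1 CPM and Erap1, which trims peptides, from 79.2 ± 6.97 to 115 ± 12.2 CPM. B2m, the light chain, rose by 0.59 ± 0.14, a call that ended in the fit corrected for GC and length (log2 fold change 0.06). The heavy chain H2-K1 was at 3464 ± 350.5 CPM in control and 3561 ± 244 CPM in knockdown tumours and did not pass. Corrected for GC and length, 8 class I genes rose and 1 fell. Of 11 class II genes 4 rose and 1 fell; 8 rose in the corrected fit, 7 with DESeq2 or limma voom, and 8 without control tumour 1. H2-Aa, a class II chain, was at 1116, 476, 618, 592 and 489 CPM in control tumours 1 to 5 and 1057, 1256, 1289.8, 1216 and 1306 CPM in knockdown tumours 1 to 5. Control tumour 1 lay among the knockdown tumours and the other control tumours lay below them (0.92 ± 0.198, edgeR adjusted p = 0.00353). H2-Eb1 rose from 566 ± 233 to 959 ± 133 CPM.

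Chemokine genes rose in both families. Of 9 tested CXC chemokines 5 rose and 1 fell, and of 19 CC and other chemokines 10 rose and 3 fell. Cxcl9, which draws CXCR3-bearing T cells, was at 375, 176, 211, 267 and 235 CPM in control tumours 1 to 5 and 772, 821, 679, 724 and 772 CPM in knockdown tumours 1 to 5, a rise of 1.59 ± 0.17 (edgeR adjusted p = 5.7e-05). Its log2 ratio to Ifng differed by -0.13 (adjusted exact permutation p = 0.559). Ccl5 was at 179, 107, 121, 126 and 113 CPM in control tumours 1 to 5 and 279, 320.4, 267, 242 and 290.4 CPM in knockdown tumours 1 to 5, with no overlap. Ligands that killer cells make rose too: Xcl1, which attracts cross-presenting dendritic cells, by 1.62 ± 0.18, Ccl3 by 1.64 ± 0.21 and Ccl4 by 1.297 ± 0.19. The monocyte attractants Ccl7 and Ccl8 rose by 1.11 ± 0.18 and 1.41 ± 0.21. Ccl22 and Ccl17, which attract CCR4-bearing cells such as regulatory T cells, fell from 6.05 ± 1.48 to 2.75 ± 0.777 CPM and from 2.23 ± 1.19 to 0.659 ± 0.197 CPM. Among interleukins Il27 rose by 1.67 ± 0.32, the interleukin 18 binding protein Il18bp by 0.55 ± 0.13 and Il10, a dampening cytokine, by 1.91 ± 0.32 from a low level (0.376 to 1.401 CPM). Il33, an alarm cytokine of barrier and stromal cells, fell by 1.179 ± 0.28.

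Macrophage genes held no common direction. Csf1r, the receptor of the growth factor CSF1, was at 295, 161, 257, 199 and 184 CPM in control tumours 1 to 5 and 213, 196, 130.2, 205 and 159.99 CPM in knockdown tumours 1 to 5, and Adgre1 (F4/80) at 107, 27.8, 90.5, 55.02 and 52.5 CPM in control tumours 1 to 5 and 99.3, 67.2, 27.3, 95.5 and 49.1 CPM in knockdown tumours 1 to 5. Both overlapped and neither passed, and Adgre1 was lowest in control tumour 2 and knockdown tumour 3. Against Ptprc, Csf1r was lower by 1.31 on the log2 scale, with no overlap (exact permutation p = 0.00794, adjusted 0.0283). Of 15 pan-macrophage genes 5 rose and 1 fell. Aif1 (IBA1) rose by 0.92 ± 0.23, Cd14 by 0.76 ± 0.19 and Lgals3, a lectin that many cell types make, by 0.66 ± 0.13. Among 13 genes of C1q and scavenger macrophages 2 rose and 3 fell, and 1 fell without control tumour 3, without knockdown tumour 2, 4 or 5, or without knockdown tumours 3 and 5 together; C1qc rose from 608 ± 102 to 847 ± 111 CPM, C1qb was at 893 ± 214 CPM in control and 896 ± 268 CPM in knockdown tumours and did not pass, and the folate receptor Folr2 fell by 0.57 ± 0.15, a call that ended without knockdown tumours 3 and 5.

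Inflammatory macrophage genes rose in 6 of 10 cases and 1 fell. Nos2, the inducible nitric oxide synthase, was at 19.1, 10.5, 16.8, 19.2 and 16.4 CPM in control tumours 1 to 5 and 49.1, 33.3, 38.2, 47.7 and 31.8 CPM in knockdown tumours 1 to 5, without overlap (1.299 ± 0.16, edgeR adjusted p = 0.00016). Arg1, which competes for the same arginine, was at 37.4, 70.1, 48.3, 81.4 and 82.1 CPM in control tumours 1 to 5 and 63.8, 39.04, 82.7, 40.97 and 51.1 CPM in knockdown tumours 1 to 5 and did not pass (-0.18 ± 0.25, edgeR adjusted p = 0.59). The log2 ratio of Nos2 to Arg1 was higher by 1.49, with overlap between control tumour 1 and knockdown tumour 3 (adjusted exact permutation p = 0.0397). Acod1, which makes itaconate, rose by 1.81 ± 0.24. Spp1, a secreted phosphoprotein of repair macrophages, was at 48.003, 58.1, 42.1, 58.1 and 64.4 CPM in control tumours 1 to 5 and 102, 95.5, 130.2, 161 and 154 CPM in knockdown tumours 1 to 5, a rise of 1.25 ± 0.15. Mgl2, a lectin of dermal dendritic cells and of alternatively activated macrophages, was at 5.59, 6.93, 10.2, 4.69 and 3.74 CPM in control tumours 1 to 5 and 0.5403, 0.584, 1.87, 0.533 and 0.9404 CPM in knockdown tumours 1 to 5. It fell by 2.72 ± 0.37 (edgeR adjusted p = 0.00028), with each knockdown tumour below the lowest control.

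The lists of dendritic cell subsets gave different counts, and the differences between them were not tested. Xcr1, the defining receptor of cross-presenting type 1 dendritic cells, was at 2.79, 1.19, 1.82, 1.32 and 1.801 CPM in control tumours 1 to 5 and 5.44, 7.32, 4.23, 6.702 and 5.11 CPM in knockdown tumours 1 to 5, without overlap (1.697 ± 0.23, edgeR adjusted p = 0.00025). With it rose Clec9a, a sensor of dead cells that the cultured cells also express, by 0.95 ± 0.12, and Cadm1 by 1.23 ± 0.24; 6 of 12 type 1 genes rose and 1 fell, Itgae, a call that ended without control tumour 3; 6 rose and 2 fell in the corrected fit. Of 9 tested type 2 genes none rose and 1 fell, and 2 rose and 2 fell in the corrected fit. Flt3 against Ptprc was lower by 1.3 on the log2 scale (exact permutation p = 0.00794, adjusted 0.0283), on as few as 14 counts in a library. Of 12 genes of mature migratory dendritic cells 2 rose and 5 fell (1 and 4 in the corrected fit), among them Fscn1 and Cacnb3 with log2 changes of -0.82 ± 0.11 and -0.84 ± 0.12; Fscn1 and Cacnb3 are also expressed by the cultured cells. Of 7 tested plasmacytoid genes 4 fell and none rose (with DESeq2, 7 of 10 tested fell), with Ly6d from 1.86 ± 0.968 to 0.186 ± 0.149 CPM and Tcf4 from 50.2 ± 8.27 to 33.98 ± 3.27 CPM, and neither gene is limited to that cell type. The plasmacytoid marker Siglech was too low to be tested.

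Of 10 tested neutrophil genes 2 rose and 3 fell, and 4 fell in the corrected fit. Csf3r, the neutrophil growth factor receptor, was at 24.1, 11.9, 16.8, 15.2 and 12.7 CPM in control tumours 1 to 5 and 23.8, 24.4, 21.3, 34.1 and 29.6 CPM in knockdown tumours 1 to 5; it rose by 0.74 ± 0.17 (edgeR adjusted p = 0.00598) with groups that overlapped, while against Ptprc it was lower by 0.29 (exact permutation p = 0.00794, adjusted 0.0283). Trem1 and Mmp9 fell by 1.003 ± 0.201 and 0.62 ± 0.13, and S100a9, a calcium-binding protein of neutrophils, from 2.304 ± 1.70 to 0.952 ± 0.439 CPM. The call of S100a9 ended with library totals, limma voom or no filter, without knockdown tumours 3 and 5 together, and without any one knockdown tumour or control tumour 2, 4 or 5. Its partner S100a8 was low, at 1.74 ± 1.21 CPM in control and 0.843 ± 0.387 CPM in knockdown tumours, and passed only in the corrected fit or without control tumour 3. Of 7 tested mast cell, basophil and eosinophil genes none passed. Cma1, mast cell chymase, was at 16.99, 9.08, 17.5, 15.4 and 18.5 CPM in control tumours 1 to 5 and 19.5, 22.1, 2.51, 14.4 and 8.95 CPM in knockdown tumours 1 to 5. The summed level of that list was 14.1 and 39.4 CPM in knockdown tumours 3 and 5, against 82.4 to 95.3 CPM in the other knockdown tumours and 60.1 to 102 CPM in the control tumours.

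**Figure D4:**
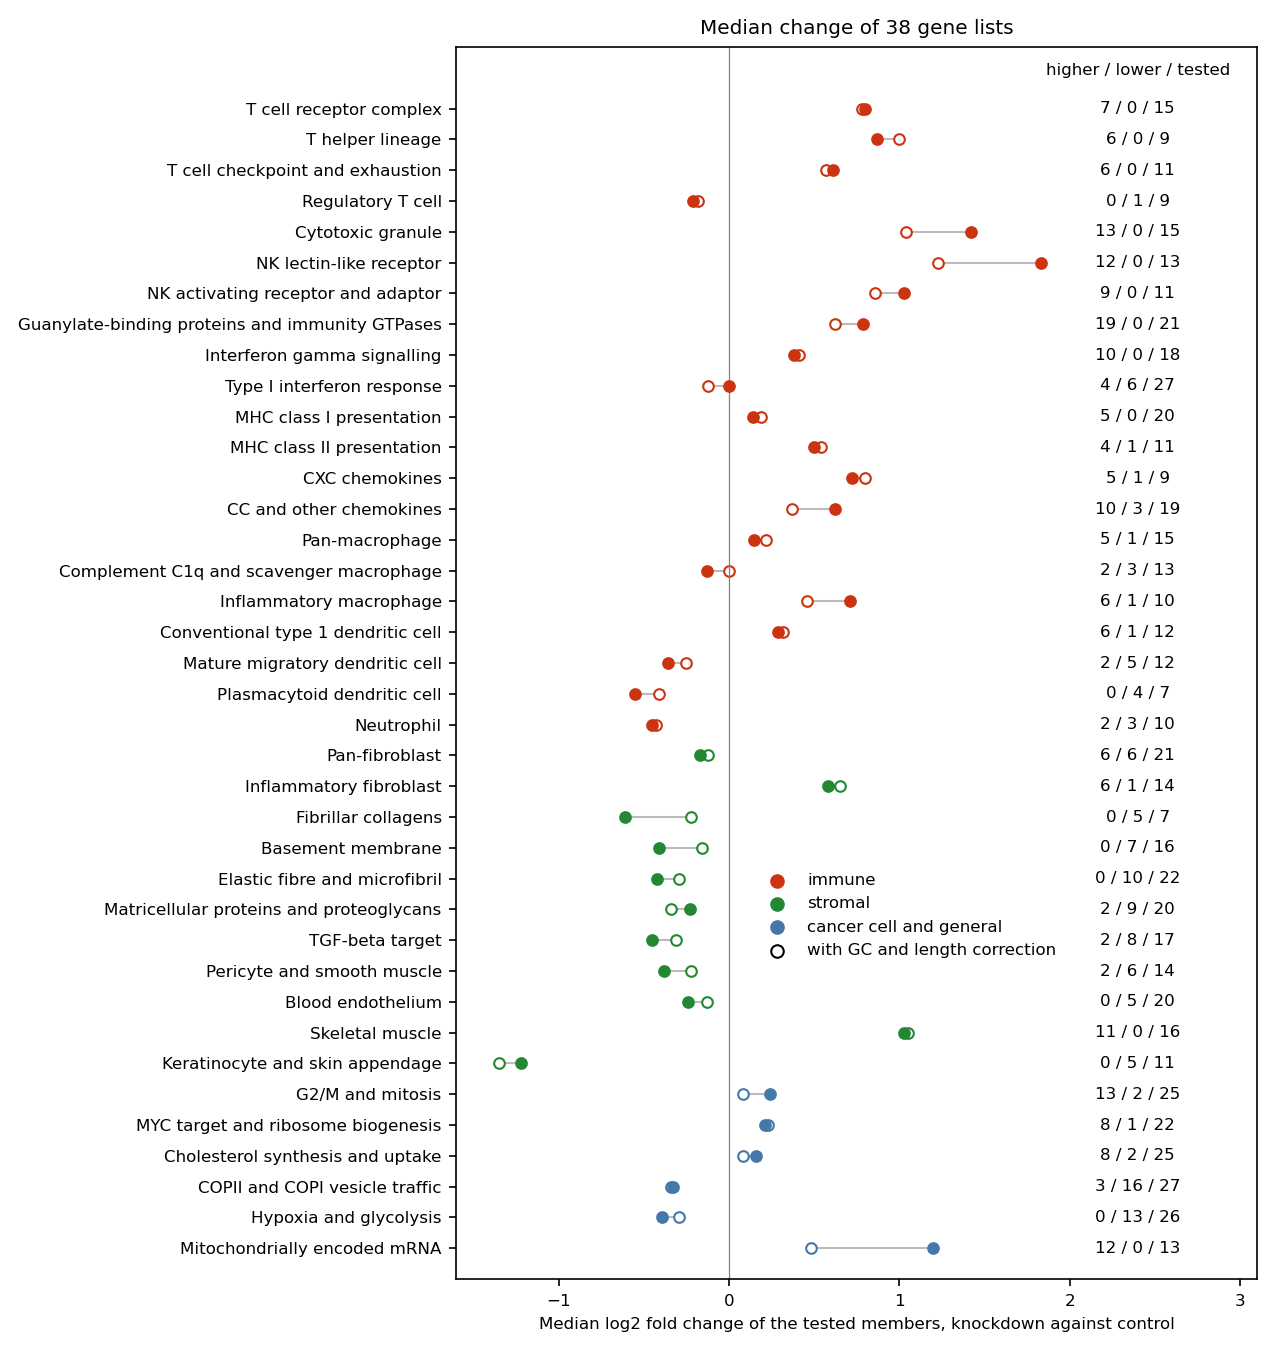
Median log2 fold change of the tested members of the gene lists plotted, from the test as run (filled) and from the fit corrected for GC content and length (open), with the number of members higher, lower and tested at the right. Among the lists plotted, the largest shifts under the correction are those of mitochondrially encoded mRNA, lectin-like receptors and fibrillar collagens.

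Many genes of the extracellular matrix fell and few rose. Of 7 tested fibrillar collagens 5 fell and none rose, with a median of -0.61; 3 fell in the fit corrected for GC and length, with a median of -0.22. Col1a1 was at 336, 502, 446, 398 and 387 CPM in control tumours 1 to 5 and 225, 198, 198, 248 and 249.9 CPM in knockdown tumours 1 to 5, without overlap (-0.88 ± 0.11; corrected -0.53), and Col5a2 fell by 0.82 ± 0.11. Col1a2, whose product joins that of Col1a1 in a single fibre, was at 118 ± 43.2 CPM in control and 134 ± 22.5 CPM in knockdown tumours and did not pass (edgeR adjusted p = 0.437). Of 14 other collagens 7 fell. In the corrected fit 2 of 14 fell, near the share of all genes in that fit (2083 of 13499). Col6a2 went from 668 ± 38.4 to 340.2 ± 58.2 CPM. Of 16 basement membrane genes 7 fell (corrected, 4 fell and 1 rose), with the laminin chain Lama4 from 32.9 ± 4.55 to 16.8 ± 1.79 CPM and the heparan sulfate proteoglycan Hspg2 from 879 ± 64.2 to 529.9 ± 55.4 CPM.

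Elastic fibre genes held some of the steepest falls. Of 22 tested 10 fell and none rose, with a median of -0.42. Mfap4, a microfibril glycoprotein listed at 0 in culture, was at 84.1, 312, 239.9, 195 and 176 CPM in control tumours 1 to 5 and 25.6, 28.8, 33.5, 29.2 and 24.8 CPM in knockdown tumours 1 to 5. It fell by 2.81 ± 0.28 (edgeR adjusted p = 5.7e-05), and the knockdown tumours lay close together while control tumour 1 was well below the other controls. Emilin1, an elastin interface protein, was at 55.7, 92.3, 83.1, 81.5 and 67.2 CPM in control tumours 1 to 5 and 25.8, 25.1, 22.1, 29.5 and 23.3 CPM in knockdown tumours 1 to 5, and fell by 1.58 ± 0.13. Eln, elastin itself, went from 21.5 ± 7.71 to 6.07 ± 1.41 CPM, the crosslinking enzyme Loxl1 from 112 ± 19.9 to 43.5 ± 3.71 CPM and Fbln5, which places elastin on microfibrils, from 56.8 ± 7.20 to 33.1 ± 2.63 CPM, and each of these fell. Fbn1, the microfibril backbone, was at 623 ± 78.8 CPM in control and 493 ± 95.6 CPM in knockdown tumours and did not pass (edgeR adjusted p = 0.054), though it did with DESeq2, limma voom and the replicate block.

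Of 20 matricellular proteins and proteoglycans 9 fell and 2 rose, the same counts as in the fit corrected for GC and length. Fn1, fibronectin, was at 3089, 4496, 4094, 5162 and 4908 CPM in control tumours 1 to 5 and 1753, 1232, 1569, 1749.8 and 1239 CPM in knockdown tumours 1 to 5, the most abundant of these genes by count. It fell by 1.52 ± 0.16 (edgeR adjusted p = 5.7e-05), more than Col1a1: the log2 ratio of Fn1 to Col1a1 was lower by 0.64 with no overlap (exact permutation p = 0.00794, adjusted 0.0283). Tnc, tenascin C, was at 52.9, 124, 109.6, 111 and 107 CPM in control tumours 1 to 5 and 43.2, 36.9, 29.8, 55.4 and 48.7 CPM in knockdown tumours 1 to 5, and control tumour 1 was the control that reached into the knockdown range. Bgn, biglycan, fell from 238 ± 49.95 to 109.9 ± 13.6 CPM and Ogn, osteoglycin, from 198 ± 56.3 to 94.2 ± 14.9 CPM. Dcn, decorin, was at 257 ± 47.1 CPM in control and 289 ± 21.8 CPM in knockdown tumours and did not pass, and Tnxb, tenascin X, rose from 3.23 ± 0.976 to 8.14 ± 0.852 CPM. Of 19 collagen processing enzymes 9 fell and none rose, with the chaperone Fkbp10 from 413 ± 33.99 to 237 ± 29.5 CPM and the procollagen protease Bmp1 from 249.6 ± 22.9 to 148 ± 19.4 CPM. Of 23 matrix proteases and inhibitors 7 fell and 2 rose, and 6 fell and 4 rose without knockdown tumour 3; the membrane protease Mmp14 fell by 1.104 ± 0.22 and the inhibitor Timp3 rose by 0.94 ± 0.13.

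All 3 genes of the TGF-beta ligands fell, Tgfb1 not in every fit. Tgfb3 was at 359, 560.01, 524, 478 and 474 CPM in control tumours 1 to 5 and 126, 91.2, 95.1, 123 and 84.3 CPM in knockdown tumours 1 to 5. The groups lay far apart, and the change was -2.196 ± 0.14 (edgeR adjusted p = 5.9e-06). Tgfb2 fell from 2.74 ± 1.33 to 0.795 ± 0.149 CPM and Tgfb1 fell by 0.53 ± 0.105, the latter not called in the fit corrected for GC and length. Of 18 ligands and receptors 5 fell and 2 rose, Tgfbr1 and Nrros. In the corrected fit 3 fell. Of 17 target genes 8 fell and 2 rose, Snai2 and Itgav, with a median of -0.45. Snai1, a repressor of epithelial genes, was at 93.7, 126, 118, 119.7 and 117 CPM in control tumours 1 to 5 and 52.99, 39.99, 42.6, 59.1 and 39.6 CPM in knockdown tumours 1 to 5, and fell by 1.28 ± 0.12, and Pmepa1, which feeds back on the receptors, went from 390.2 ± 63.1 to 164 ± 13.5 CPM. The targets Id3 and Smad6, which BMP signals also raise, fell by 0.81 ± 0.14 and 0.79 ± 0.15.

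Markers of stromal cells went both ways. Of 21 pan-fibroblast genes 6 rose and 6 fell; 3 rose in the corrected fit or without control tumour 4, and 2 without control tumour 3 or knockdown tumour 2. Pdgfrb, the PDGF receptor of fibroblasts and pericytes, was at 35.2, 66.6, 54.9, 57.003 and 54.4 CPM in control tumours 1 to 5 and 23.6, 18.9, 24.3, 24.2 and 25.6 CPM in knockdown tumours 1 to 5, and fell by 1.19 ± 0.15 without overlap. Pdgfra fell from 179 ± 18.3 to 122 ± 12.1 CPM and Dpt, dermatopontin, from 199.9 ± 32.3 to 85.7 ± 16.6 CPM. Thy1, which T cells carry too, and Cd34, which the cultured cells express strongly, rose by 0.57 ± 0.15 and 0.43 ± 0.10. Pecam1 (CD31), the defining endothelial marker, was at 44.3, 23.8, 40.01, 34.1 and 35.1 CPM in control tumours 1 to 5 and 41.8, 30.1, 28.4, 43.99 and 34.1 CPM in knockdown tumours 1 to 5 and did not differ beyond the spread (0.02 ± 0.15, edgeR adjusted p = 0.927). Col1a1 against Pdgfrb differed by 0.30 on the log2 scale (adjusted exact permutation p = 0.0541), and Pdgfrb against Pecam1 was lower by 1.2 (adjusted exact permutation p = 0.0397). Of 20 blood endothelium genes 5 fell and none rose; 3 fell in the corrected fit, 1 without knockdown tumours 3 and 5, and from 2 to 8 when a single library was left out (2 without knockdown tumour 5, 3 without control tumour 4 or 5, 8 without knockdown tumour 1). Cdh5 (VE-cadherin) fell from 37.6 ± 6.03 to 22.7 ± 6.64 CPM; Kdr was at 9.64 ± 1.72 CPM in control and 8.17 ± 2.93 CPM in knockdown tumours and did not pass. Of 14 pericyte and smooth muscle genes 6 fell and 2 rose, with the channel Kcnj8 from 7.26 ± 1.78 to 2.66 ± 0.505 CPM, while Rgs5 was at 28.2 ± 6.05 CPM in control and 34.3 ± 6.73 CPM in knockdown tumours and did not pass; 3 fell without control tumour 3 or 4 and 4 in the corrected fit. Acta2, smooth muscle actin, fell by 0.65 ± 0.15. Of 14 inflammatory fibroblast genes 6 rose and 1 fell, led by the neutrophil attractant Cxcl1, which the cultured cells also express. Cxcl1 was at 3.298, 5.09, 4.19, 3.67 and 3.21 CPM in control tumours 1 to 5 and 11.01, 10.7, 18.3, 15.7 and 18.4 CPM in knockdown tumours 1 to 5. The adhesion molecules Vcam1 and Icam1, which hold leukocytes, rose by 0.79 ± 0.09 and 0.71 ± 0.13, while Vwf, the platelet-binding factor of endothelium, fell by 0.81 ± 0.197.

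Tissue around a tumour can be collected with it, and genes of skeletal muscle and skin were uneven across the libraries. Of 16 skeletal muscle genes 11 rose and none fell; 5 rose without control tumour 4. Their summed level was 544.9 CPM in knockdown tumour 2, against 205.7 to 244.5 CPM in the other knockdown tumours and 140.9 to 209.0 CPM in the control tumours. Pvalb, a calcium buffer of fast muscle, went from 2.15 ± 0.829 to 11.2 ± 6.73 CPM, and Acta1, muscle actin, was at 43.2, 45.1, 46.4, 36.3 and 54.95 CPM in control tumours 1 to 5 and 52.7, 129, 35.8, 56.1 and 50.7 CPM in knockdown tumours 1 to 5 and did not pass. Of 11 tested keratinocyte and skin appendage genes 5 fell and none rose. Krt5, the basal keratin, was at 8.11, 16.4, 7.505, 14.2 and 12.4 CPM in control tumours 1 to 5 and 0.166, 0.225, 0, 0.0444 and 12.5 CPM in knockdown tumours 1 to 5. It was near 0 in knockdown tumours 1 to 4 and within the control range in knockdown tumour 5, and did not pass over all 10 libraries (edgeR adjusted p = 0.148), though it did with limma voom and with the replicate block. The list gave 9 falls of 12 tested without knockdown tumour 5 and 10 of 14 without knockdown tumours 3 and 5. Of 11 tested it gave 8 with limma voom, 3 in the corrected fit, and 2 and 3 without control tumours 4 and 5. The part of such tissue in the stromal results was not tested.

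**Figure D5:**
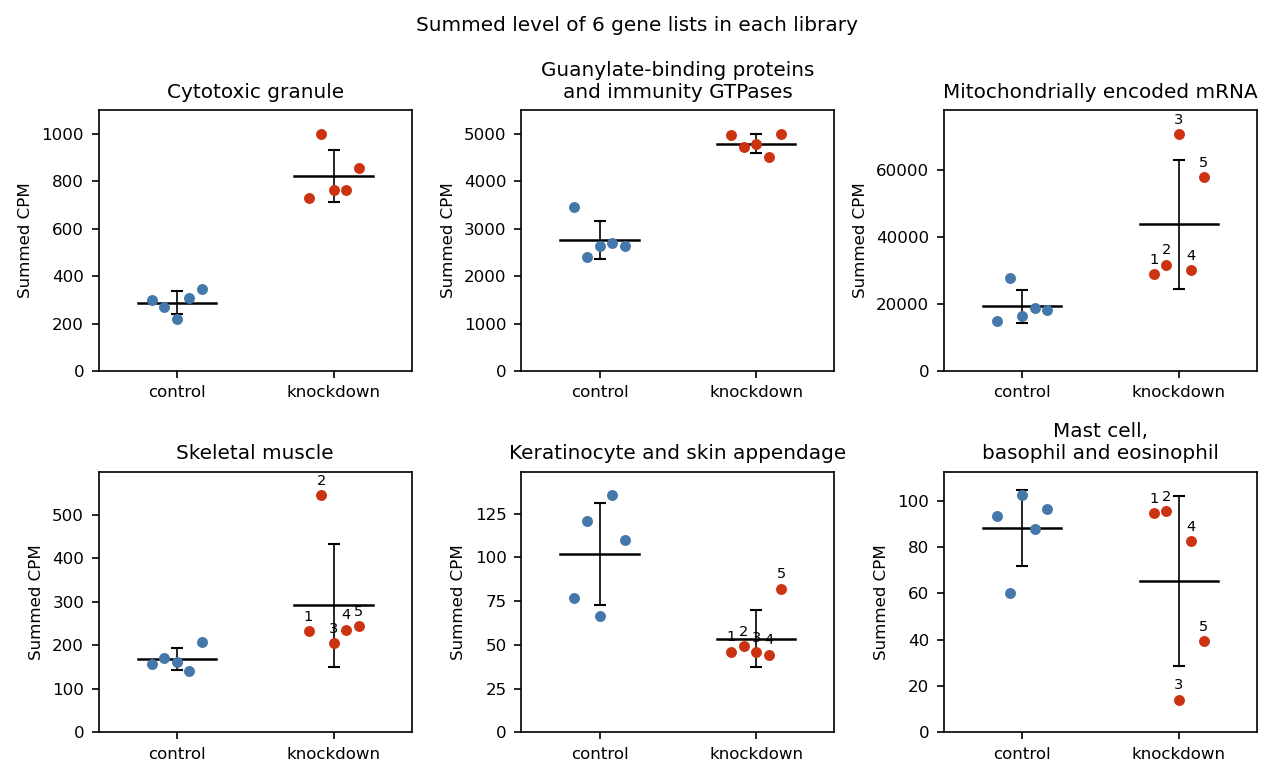
Summed CPM of 6 gene lists in each library (blue, control; red, knockdown); lines are means and error bars SDs, n = 5, and digits number the knockdown tumours. Granule and GTPase genes are higher in all 5 knockdown libraries, muscle genes are highest in knockdown tumour 2, skin genes in knockdown tumour 5 lie within the control range, and mast cell genes are lowest in knockdown tumours 3 and 5.

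Genes that cultured MC38 cells express are the nearest to a cancer cell readout in bulk tumours, although host cells share most of them. Of 9963 genes at 5 CPM or more in control culture, 2062 rose (20.7%) and 2104 fell (21.1%). Of 1635 tested genes listed at 0 in culture, 374 rose (22.9%) and 147 fell (8.99%), with a median of 0.20 against -0.01 for the first set. At changes of at least 2-fold the counts were 78 up and 61 down in the first set, and 194 up and 81 down in the second. Cells in a tumour can express genes that they do not in culture, so the second set is not host RNA alone.

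Among culture-expressed genes the steepest rises after Cxcl1 included Styk1, a receptor-like kinase, from 4.15 ± 0.692 to 15.3 ± 3.31 CPM, the surface glycoprotein Msln (mesothelin) from 4.05 ± 0.984 to 14.5 ± 1.68 CPM and the adhesion protein Amigo2 from 37.9 ± 8.05 to 118 ± 13.5 CPM. The steepest falls after Tgfb3 included Masp1, a serine protease of the lectin pathway of complement, from 63.5 ± 4.58 to 20.4 ± 3.03 CPM, the eye and pancreas factor Pax6 from 21.4 ± 2.33 to 7.82 ± 0.958 CPM, Mxd4, a MAX partner that opposes MYC, from 61.6 ± 9.67 to 23.7 ± 9.16 CPM, and Tenm3, a teneurin, from 59.8 ± 10.5 to 22.9 ± 4.63 CPM. Imprinted growth genes, low or listed at 0 in culture, fell as well. H19, a non-coding RNA from the imprinted Igf2 locus, was at 6269.9, 6462, 7295, 6976 and 6093 CPM in control tumours 1 to 5 and 4020.3, 3061, 2239, 3285 and 2026 CPM in knockdown tumours 1 to 5. It fell by 1.17 ± 0.16 (edgeR adjusted p = 0.00032) without overlap, and knockdown tumours 3 and 5 were lowest. Igf2, listed at 0 in culture, was at 15.6, 18.6, 26.2, 21.7 and 12.4 CPM in control tumours 1 to 5 and 2.54, 2.02, 3.15, 3.24 and 3.31 CPM in knockdown tumours 1 to 5, and fell by 2.704 ± 0.205 (edgeR adjusted p = 1.2e-05). Dlk1 and Mest, further paternally expressed genes, fell from 1.5999 ± 0.343 to 0.415 ± 0.136 CPM and from 8.95 ± 1.91 to 3.08 ± 1.11 CPM, and the clearance receptor Igf2r from 73.4 ± 8.06 to 43.7 ± 8.85 CPM, while Meg3 was at 5.39 ± 1.28 CPM in control and 5.43 ± 1.49 CPM in knockdown tumours and did not pass. Of 23 tested growth factor and imprinted genes 7 fell and 3 rose, 1 in the corrected fit.

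Epithelial and colon genes were scarce: 2 of 21 were tested and neither passed. Epcam was at 0.504 ± 0.171 CPM in control and 0.354 ± 0.316 CPM in knockdown tumours, and no value is given here for Krt8, a member of that list. Vim, an intermediate filament of mesenchymal cells, was at 3572 ± 310.2 CPM in control and 4239.8 ± 359 CPM in knockdown tumours and did not pass, though it did with DESeq2 and in the corrected fit. MC38 neoantigens are known from a few mutated genes, and of 7 such genes 1 rose, Aatf (0.42 ± 0.08), and 1 fell, Irgq (-0.71 ± 0.14). Adpgk was at 48.98 ± 4.52 CPM in control and 57.5 ± 5.88 CPM in knockdown tumours and did not pass, though it did in the corrected fit, where 2 of the 7 rose, and with DESeq2 and limma voom; Reps1 at 100.1 ± 3.89 CPM in control and 104 ± 5.75 CPM in knockdown tumours and Dpagt1 at 54.8 ± 4.76 CPM in control and 46.99 ± 5.98 CPM in knockdown tumours. Among ligands that restrain immune cells, Cd274 (PD-L1) was at 69.03, 46.3, 50.8, 56.1 and 51.4 CPM in control tumours 1 to 5 and 98.004, 84.3, 107, 86.6 and 110.4 CPM in knockdown tumours 1 to 5, a rise of 0.85 ± 0.12 without overlap. The phagocytosis inhibitor Cd47 rose from 108 ± 7.41 to 178 ± 31.1 CPM, and Cd276 (B7-H3) fell from 13.4 ± 1.39 to 8.13 ± 2.73 CPM.

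Proliferation genes rose in part. Of 25 G2/M genes 13 rose and 2 fell, and 6 rose and 2 fell in the fit corrected for GC and length; 4 fell without knockdown tumour 4. Mki67 was at 176, 208, 218, 177 and 211 CPM in control tumours 1 to 5 and 281, 274, 281, 261 and 288 CPM in knockdown tumours 1 to 5, a rise of 0.501 ± 0.09 without overlap that held in the corrected fit, and Ube2c, which marks mitotic proteins for destruction, rose from 114 ± 8.39 to 178 ± 26.8 CPM. Pcna rose by 0.32, a call that ended in the fit corrected for GC and length (log2 fold change 0.06). Mki67 against Pcna differed by 0.19 (adjusted exact permutation p = 0.261). Of 22 MYC target and ribosome biogenesis genes 8 rose and 1 fell. Npm1, nucleophosmin, was at 645, 901, 739, 670.5 and 731 CPM in control tumours 1 to 5 and 1015, 1065, 1173, 1070.3 and 1451 CPM in knockdown tumours 1 to 5, and Nop56, a core protein of small nucleolar particles, went from 270.1 ± 20.2 to 429 ± 91.9 CPM. Myc itself rose by 0.51 ± 0.14. Of the apoptosis regulators, the death activators Bmf and Bcl2l11 (BIM) fell from 24.6 ± 2.75 to 8.22 ± 1.11 CPM and from 39.1 ± 1.12 to 25.9 ± 3.47 CPM, and the survival protein Mcl1 rose by 0.45 ± 0.09. Over 25 such genes 8 rose, among them Fas, the receptor of the death ligand Fasl, and 4 fell. When corrected, 5 rose and 4 fell.

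Secretory pathway genes went both ways. Of 27 genes of COPII and COPI coats, which carry proteins between the ER and the Golgi, 16 fell and 3 rose, with a median of -0.33; 16 fell and none rose in the fit corrected for GC and length, and 10 fell and 1 rose without knockdown tumours 3 and 5. Kdelr3, which returns escaped ER proteins, was at 62.2, 73.3, 69.05, 65.7 and 71.6 CPM in control tumours 1 to 5 and 39.6, 26.6, 31.1, 35.8 and 28.2 CPM in knockdown tumours 1 to 5, and fell by 1.07 ± 0.103 (edgeR adjusted p = 3.7e-05) without overlap. The coat subunits Sec23a and Copg1 fell from 41.7 ± 3.35 to 29.1 ± 2.08 CPM and from 247 ± 12.1 to 162 ± 15.5 CPM. ER chaperones moved the other way, with 10 of 27 up and 2 down, and 7 up and 1 down in the corrected fit. Hspa5 (BiP) was at 650.1, 729, 741, 677 and 708 CPM in control tumours 1 to 5 and 869, 946, 1056, 1056 and 1239.7 CPM in knockdown tumours 1 to 5, a rise of 0.57 ± 0.101, and Derl2, which moves faulty proteins out of the ER, went from 44.7 ± 2.98 to 73.04 ± 15.9 CPM. P4hb, the disulfide isomerase that is also a collagen hydroxylase subunit, was among those that fell, from 1399 ± 76.2 to 1083 ± 53.1 CPM.

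Of 25 cholesterol genes 8 rose and 2 fell, Srebf2 and Dhcr7. In the fit corrected for GC and length 6 rose and none fell, and without knockdown tumours 3 and 5 together 7 rose and none fell; 5 rose and 2 fell without control tumour 3 or knockdown tumour 5, and 5 rose and none fell without control tumour 4. Msmo1, a sterol ring demethylase, was at 48.1, 41.97, 37.6, 36.2 and 41.5 CPM in control tumours 1 to 5 and 62.01, 65.1, 65.5, 59.8 and 78.7 CPM in knockdown tumours 1 to 5, a rise of 0.705 ± 0.101. Of 22 tested substrates and partners of site-1 protease 10 fell, Mbtps1 among them, and 3 rose, Insig1, Bdnf and Mbtps2. In the corrected fit 6 of 21 fell and 1 rose, and 1 rose when any of 6 single libraries was left out. Furin, another convertase, fell from 179 ± 20.3 to 99.8 ± 28.6 CPM, the factor Creb3l2 from 72.6 ± 7.11 to 48.7 ± 5.31 CPM and Atraid from 48.7 ± 2.397 to 35.2 ± 3.17 CPM. Srebf1 was at 129 ± 11.3 CPM in control and 114 ± 15.4 CPM in knockdown tumours and did not pass. Such mRNA levels do not show how much of a precursor protein is cut.

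Many genes of glycolysis fell. Of 26 hypoxia and glycolysis genes 13 fell and none rose, with a median of -0.39; 9 fell in the fit corrected for GC and length, 6 fell and 1 rose without knockdown tumours 3 and 5, and 7 or 8 fell without control tumour 4 or 5 or knockdown tumour 3 or 5 alone. Ldha, lactate dehydrogenase, was at 1119, 1289, 1258, 1485 and 1509.8 CPM in control tumours 1 to 5 and 1115, 909.6, 570.4, 811 and 522 CPM in knockdown tumours 1 to 5. The lowest control was barely above the highest knockdown tumour, tumour 1, and knockdown tumours 3 and 5 were lowest (-0.75 ± 0.18, edgeR adjusted p = 0.00714). Pfkl, a phosphofructokinase, was at 229.7, 268, 282, 359 and 357 CPM in control tumours 1 to 5 and 209, 159, 107, 139.99 and 90.97 CPM in knockdown tumours 1 to 5, and fell by 1.07 ± 0.203, and Hk1 fell from 136 ± 9.45 to 79.004 ± 20.6 CPM. Vegfa, a hypoxia-induced growth factor of vessels, was at 139 ± 50.6 CPM in control and 122 ± 28.2 CPM in knockdown tumours and did not pass. Of 13 mitochondrially encoded mRNAs 12 rose; 3 rose in the corrected fit and 7 without knockdown tumours 3 and 5. ND2, a complex I subunit, was at 712, 1509, 764, 965 and 889 CPM in control tumours 1 to 5 and 1868, 2076, 5216, 1836 and 3779 CPM in knockdown tumours 1 to 5. Of 27 nuclear genes of the respiratory chain 5 rose and 8 fell; 2 rose in the corrected fit, and 2 fell without knockdown tumours 3 and 5, 4 without knockdown tumour 5, and 5 without knockdown tumour 3 or control tumour 1, 3 or 4. Cycs, cytochrome c, was at 169, 209, 181, 170.4 and 179.7 CPM in control tumours 1 to 5 and 279, 337, 339, 307 and 390.3 CPM in knockdown tumours 1 to 5, a rise of 0.88 ± 0.11 without overlap.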

How the data were processed

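Poly(A) mRNA libraries of 5 control and 5 knockdown tumours were analysed from 1 table of raw counts per gene symbol, as deposited by the authors. Tools credited in the submitters' processing notes are cutadapt 1.18, STAR 2.7.1a and HTSeq 0.13.5; the notes name the human build hg38, while 95.9% of the 15596 symbols matched the mouse annotation GENCODE M21, and the build, annotation and strand setting used for these counts are not given in the sources used here. In the deposited counts the lowest non-zero sum over the tumour libraries is 15, so a listed 0 may hide a low count. Genes were tested with edgeR 4.0.16 in R 4.3.3 (TMM, filterByExpr, robust quasi-likelihood, Benjamini-Hochberg over 13997 genes, threshold 0.05), after a check on simulated data. CPM were computed from library totals. Single values per library were compared by two-sided exact permutation tests over the 10 libraries. Log2 ratios used counts + 0.5. Alternatives were DESeq2 1.42.0, limma 3.58.1 voom, library totals, RLE factors, no filter, a stricter filter (5 libraries with 10 counts and 1 CPM or more), the replicate number as a block, a correction for transcript GC and length, and each library left out; leaving out knockdown tumours 3 and 5 together was added after seeing the data. Named genes are Mbtps1, the 10 largest changes each way with at least 5 CPM and no overlap (among genes listed at 0 and at 5 CPM or more in culture), up to 4 members per list and direction with the smallest p, and a set of markers; any other gene was named after its values were seen. A few genes of these sets are not reported here. The members and the 89 gene lists were chosen with earlier results of these data known. Promoters and their positions are from RefSeq, GRCm38.p6. In 127 symbols the tumour counts equal those of another symbol.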

Additional observations from a re-analysis of the deposited data

Results flagged for a closer look

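Groups of 5 libraries were searched for a highest or lowest library that stood far from the rest, by the gap to its nearest neighbour as a share of the range of the group. Of 154 groups 10 held one, and chance alone gives about 1 in 20. Control tumour 1 was the highest control for Ccl5 (179 CPM), Gbp4 (259 CPM), Gbp2b (5.36 CPM) and H2-Aa (1120 CPM), and the lowest control for Tnc (52.9 CPM) and Snai1 (93.7 CPM). Control tumour 2 held the highest mitochondrially encoded share among controls, 2.78%. Among knockdown tumours, tumour 2 was highest for the muscle actin Acta1 (129 CPM), tumour 5 for the basal keratin Krt5 (12.5 CPM), and tumour 3 for the log2 ratio of Cd8a to Cd3e (2.04).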

How the results depend on the processing

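Over the alternatives for the test across genes, from 3754 to 5967 genes were called, against 5377. DESeq2 called 5967, limma voom 5442, RLE factors 5385, no filter 5359, the stricter filter 5270 and library totals 5202; leaving out 1 library gave 4069 (without control tumour 4) to 5833 (without knockdown tumour 1). Of 179 named genes called and followed under the alternatives, 168 kept their call under each of them. The call was lost by 7 in the fit corrected for GC and length and by 3 without knockdown tumours 3 and 5. Srebf2, Dhcr7, Insig1, Bdnf, Mbtps2, Fas, Tgfbr1, Nrros, Snai2 and Itgav, named above by direction alone, were not among the 179. Of 32 named genes not called, 14 were called under at least 1 alternative: Adpgk, Fbn1, Krt5, S100a8 and Vim under alternatives of more than 1 kind, Il12rb2 without knockdown tumours 3 and 5, and Cd4, Cxcr3, Dpagt1, Ifngr1, Ighm, Jak1, Pdcd1 and Srebf1 only when a single library was left out. Ifi205 was at -0.00 on the log2 scale in the corrected fit; the cause was not tested. The difference in the share of genes listed at 0 in culture, 0.548 percentage points, was 0.672 without knockdown tumours 3 and 5 (exact permutation p = 0.0536), 0.703 with genes under 1 CPM in culture (exact permutation p = 0.0556) and from 0.461 to 0.685 when each library was left out, with the call ended in 7 of these 10 cases (values from 0.461 to 0.577). The deviations of same-numbered tumours correlated with r from -0.203 to 0.158. These values do not show a pairing by number, and so few of them cannot exclude one. With the replicate number as a block 4746 genes were called. The share of genes listed at 0 in culture still differed by 0.548 (exact permutation p = 0.188) and the mitochondrially encoded share by 2.46 (exact permutation p = 0.0625, the smallest the block allows). With the block 0 of 25 ratios passed, but no ratio could pass, since this smallest p is above 0.05 before any adjustment. Without knockdown tumours 3 and 5, 0 ratios passed, where 0.0179 is the smallest unadjusted p possible; leaving out 1 library gave 4 to 11. With 5 libraries a group, genes of a few counts per library are measured with wide error.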

Other observations

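Receptors that sense microbes and antibodies rose in 10 of 23 cases and none fell. Clec4e (Mincle), a lectin of activated macrophages, went from 1.63 ± 0.561 to 4.73 ± 0.498 CPM and Aim2, a sensor of cytosolic DNA, from 6.27 ± 0.4404 to 11.6 ± 2.34 CPM (SD, n = 5 each). Integrins divided: of 23, 8 rose and 4 fell. The leukocyte integrin chains Itgb2 and Itgal rose by 0.75 ± 0.11 and 0.84 ± 0.203 on the log2 scale, while Itgb5, a chain that binds vitronectin, fell by 0.87 ± 0.12 and Itga7, a laminin receptor, fell by 0.798 ± 0.10.

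Immediate early genes, which respond to stimuli and to handling of tissue, rose in 8 of 18 cases and 2 fell; in the fit corrected for GC and length 10 rose and 1 fell. Fosl1 went from 129.9 ± 27.4 to 253 ± 53.3 CPM, Fos from 9.33 ± 1.84 to 14.9 ± 3.88 CPM and Zfp36, which destabilises cytokine mRNA, from 21.4 ± 2.62 to 35.8 ± 9.33 CPM, while Egr2 fell from 4.34 ± 0.9901 to 1.91 ± 0.539 CPM. Of 20 cytosolic heat shock genes 8 rose and none fell, and 11 rose without knockdown tumours 3 and 5; Stip1, a co-chaperone, rose by 0.41 ± 0.07 and Hspa8 by 0.33 ± 0.09.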
